A study of Marchantia polymorpha with 9 samples.

Results

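MpMYB14 (Mapoly0073s0038), an R2R3-MYB transcription factor gene of the liverwort Marchantia polymorpha, was followed as 1 gene of the 19287 in an RNA-Seq table. It was chosen by its identifier, with earlier results of these data known. The identifier was taken as that of MpMYB14 on a pairing given outside the table and the paper, and it was not checked by sequence here. RNA came from 3-week-old thalli of 3 groups with 3 replicates each. The groups were the male wild type Tak-1 and 2 independent transgenic lines in the Tak-1 background, MpBHLH12ox#2 and MpBHLH12ox#3. Both lines carried MpBHLH12 (named MpGL3 in the sample labels) fused to the yellow fluorescent protein Citrine and driven by the constitutive 35S promoter. Plants were untreated and grown under continuous light, and pieces of thallus were pooled for each RNA sample. Each line stands for 1 transformant. Tak-1 was not transformed, so an effect of MpBHLH12 and an effect of transformation cannot be told apart.

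R2R3-MYB proteins are plant transcription factors, and in seed plants several of them act with a bHLH protein and a WD40 repeat protein in a complex that switches on pigment genes. MpMYB14 is known from overexpression and loss-of-function plants as an activator of the phenylpropanoid and flavonoid pathways in M. polymorpha, and plants with more of it become deeply pigmented. The red pigments sit in the cell wall and were first described as the anthocyanidin riccionidin A. MpBHLH12 is the IIIf bHLH gene of the liverwort and belongs to the clade that holds the bHLH partners of pigment MYB proteins in Arabidopsis.

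The table holds FPKM, fragment counts scaled by gene length and by the size of the library, which the authors had averaged to 1 value per group. No value of a single replicate was used, so no difference below has a replicate error or a test, and the depth of each library is unknown. MpBHLH12 (Mapoly0031s0161) itself had 20.3 FPKM in Tak-1, 547.6 FPKM in MpBHLH12ox#2 and 474.6 FPKM in MpBHLH12ox#3, so both lines carried the high level that their labels imply. Where 3 levels of a gene are given without group names, they are in the order Tak-1, MpBHLH12ox#2 and MpBHLH12ox#3.

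MpMYB14 was a weakly expressed gene in Tak-1 and about 2-fold more abundant in both lines. Its average was 1.44 FPKM in Tak-1, 3.01 FPKM in MpBHLH12ox#2 and 3.32 FPKM in MpBHLH12ox#3. Tak-1 was the lowest group and the 2 lines lay close together, with MpBHLH12ox#3 at 1.10 times the level of MpBHLH12ox#2. The ratio to Tak-1 was 2.09 in MpBHLH12ox#2 and 2.30 in MpBHLH12ox#3. On the scale used for all genes, log2(FPKM + 1), the difference from Tak-1 was 0.72 in MpBHLH12ox#2 and 0.82 in MpBHLH12ox#3, a mean of 0.77 with an SD of 0.08 over the 2 lines. This SD describes 2 line averages and is not the error of biological replicates. Adding 1 FPKM understates the change of a gene at this level, and without it the log2 ratios were 1.06 and 1.20. In thallus RNA, more cells with the transcript and more transcript in each cell cannot be told apart.

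**Figure D1:**
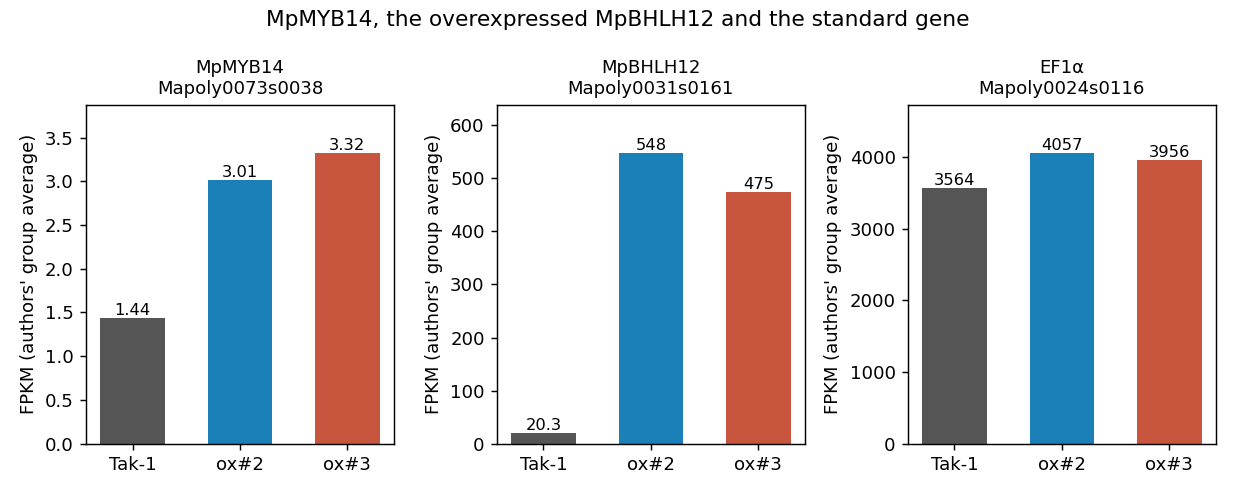
Bars show the authors' average FPKM (linear axes from 0, a different range in each panel) of MpMYB14, of the overexpressed MpBHLH12 and of the standard gene EF1α in Tak-1, MpBHLH12ox#2 (ox#2) and MpBHLH12ox#3 (ox#3). There are no error bars because the table holds 1 average per group. MpMYB14 goes from 1.44 FPKM to 3.01 and 3.32 FPKM, while MpBHLH12 goes from 20.3 FPKM to 547.6 and 474.6 FPKM.

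In all 3 groups MpMYB14 stayed among the less abundant transcripts. Of the 13324 genes with at least 1 FPKM in any group, 6.80% had a lower FPKM than MpMYB14 in Tak-1, while 14.6% did in MpBHLH12ox#2 and 15.3% did in MpBHLH12ox#3. The medians of these genes were 13.7, 13.7 and 13.9 FPKM. MpBHLH12 was 14.1 times as abundant as MpMYB14 in Tak-1, 182 times in MpBHLH12ox#2 and 143 times in MpBHLH12ox#3. The line with the lower level of MpBHLH12 thus had the higher level of MpMYB14, a difference between 2 averages that was not tested. EF1α (Mapoly0024s0116), the elongation factor gene used as a standard in the qRT-PCR of the study, had 3564 FPKM in Tak-1 and was 1.14 and 1.11 times as high in the lines. With every group rescaled to equal EF1α, the change of MpMYB14 was 0.64. That scaling set the median of all expressed genes at -0.15, and relative to this median MpMYB14 was higher by 0.79.

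The study has 3 replicates per group and tested their fragment counts with EdgeR, but the group averages used here allow no test, so genes were called by size. A gene was called higher or lower when both lines differed from Tak-1 by 0.5 or more on the log2 scale, with the same sign. Of the 13324 expressed genes, 821 (6.16%) were called higher and 675 (5.07%) were called lower, together 11.2%, and MpMYB14 was 1 of the 821. After rescaling to EF1α, the numbers were 540 and 1121, and MpMYB14 was still called higher. In MpBHLH12ox#2 alone 8.04% of the genes, and in MpBHLH12ox#3 alone 9.68%, were higher by 0.5 or more. At a size of 1 in both lines, 208 genes (1.56%) were higher and 202 (1.52%) lower, together 3.08%, and MpMYB14 was not among them. Its change lay at the percentile 95.6 of all expressed genes in MpBHLH12ox#2 and 95.9 in MpBHLH12ox#3. The call rests on the pseudocount, since with 5 FPKM added in place of 1 the changes of MpMYB14 were 0.31 and 0.37 and missed the size. In 377 other genes (2.83%) the change was at least as large as that of MpMYB14 in both lines.

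Genes at the low level of MpMYB14 differed more between the lines than others, and its change was set beside theirs. Between 1 and 2 FPKM in Tak-1 there were 956 other genes, of which 88 (9.21%) were called higher and 44 (4.60%) were changed by at least as much as MpMYB14. The lines differed from each other by 0.11 in the log2 level of MpMYB14. In the same range of Tak-1 levels the median absolute difference between the lines was 0.12, against 0.09 over all expressed genes, and the 95th percentile was 0.55. The change of MpMYB14 against Tak-1 was thus larger in both lines than the difference between lines in 95% of these genes. The 2 changes share the Tak-1 average, so an error of that average would move both of them together.

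**Figure D2:**
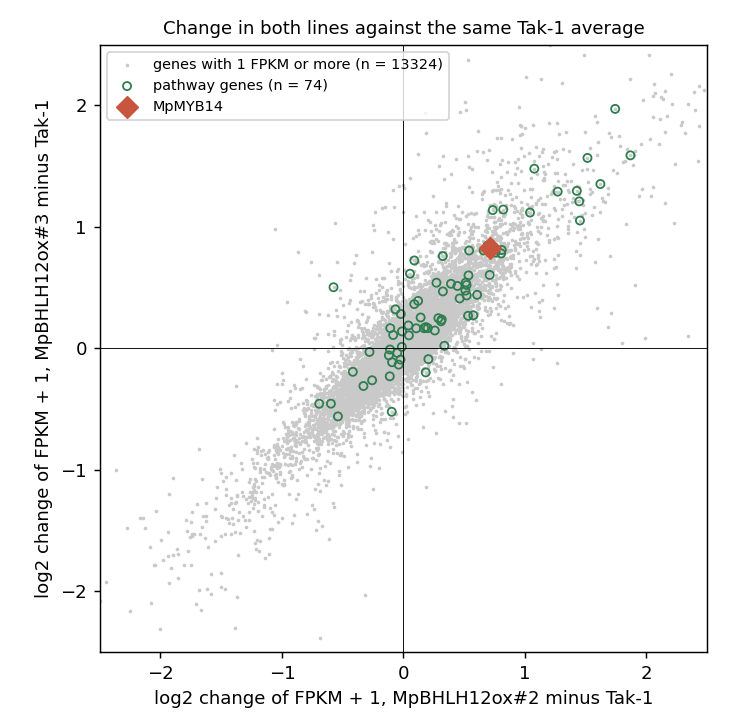
Each point is a gene with at least 1 FPKM in any group, placed by its log2 change of FPKM + 1 against Tak-1 in MpBHLH12ox#2 (horizontal axis) and MpBHLH12ox#3 (vertical axis). Open circles are the shikimate and phenylpropanoid genes and the diamond is MpMYB14, which lies at 0.72 and 0.82 within the upper right arm of the cloud. The axes end at 2.5 and leave out 65 genes, 1 of them a pathway gene.

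None of the expressed genes within 10 numbers of MpMYB14 on scaffold 73 reached the size of 0.5 upward in both lines. Scaffold 73 holds 100 genes of the table, and 20 of them carry numbers within 10 of MpMYB14. On one side, Mapoly0073s0037 was listed at 0 FPKM in all groups. Mapoly0073s0036 had 4.55 FPKM in Tak-1, 4.84 FPKM in MpBHLH12ox#2 and 5.58 FPKM in MpBHLH12ox#3. Mapoly0073s0035, the most abundant of these neighbours, had 112.0, 114.9 and 103.1 FPKM in the same order. These genes lay within 0.25 on the log2 scale of their Tak-1 level. On the other side, Mapoly0073s0039 had 0.03, 0.14 and 0.08 FPKM. Mapoly0073s0040 had 5.88, 6.20 and 6.64 FPKM, and Mapoly0073s0041 had 7.56, 7.38 and 7.43 FPKM. MpMYB14 therefore stood between genes that were at or near 0 and genes whose changes were small.

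Of the 20 genes within 10 numbers, 11 had at least 1 FPKM in any group. Among these 11, 0 were called higher and 1 was called lower, beside 6.16% and 5.07% of all expressed genes. The median of their mean changes was -0.03, beside 0.01 over all expressed genes. The largest mean increase was that of Mapoly0073s0033, which had 0.59 FPKM in Tak-1, 0.94 FPKM in MpBHLH12ox#2 and 1.92 FPKM in MpBHLH12ox#3 and reached the size in MpBHLH12ox#3 alone. The gene called lower was Mapoly0073s0045, with 1.31, 0.45 and 0.36 FPKM. With a pseudocount of 0.1, 3 of the 11 were called, 2 of them higher. At that pseudocount 1105 of the 13324 expressed genes were called higher and 827 lower. The sum of FPKM over the 20 genes was 1.06 times that of Tak-1 in MpBHLH12ox#2 and 1.02 times in MpBHLH12ox#3.

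Over the whole scaffold, 63 other genes were expressed, of which 6 (9.52%) were called higher and 2 were called lower, beside 6.16% and 5.07% of all expressed genes. In mean change MpMYB14 ranked at 3 of the 64 expressed genes of scaffold 73. The gene with the largest increase, Mapoly0073s0049, lies 11 numbers away, just outside the interval, and is named here because of its values. It had 40.3 FPKM in Tak-1, 183.0 FPKM in MpBHLH12ox#2 and 178.5 FPKM in MpBHLH12ox#3 (log2 changes of 2.16 and 2.12). Mapoly0073s0046, Mapoly0073s0047 and Mapoly0073s0048 lie between Mapoly0073s0045 and Mapoly0073s0049, and their mean changes were -0.11, -0.11 and -0.10.

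**Figure D3:**
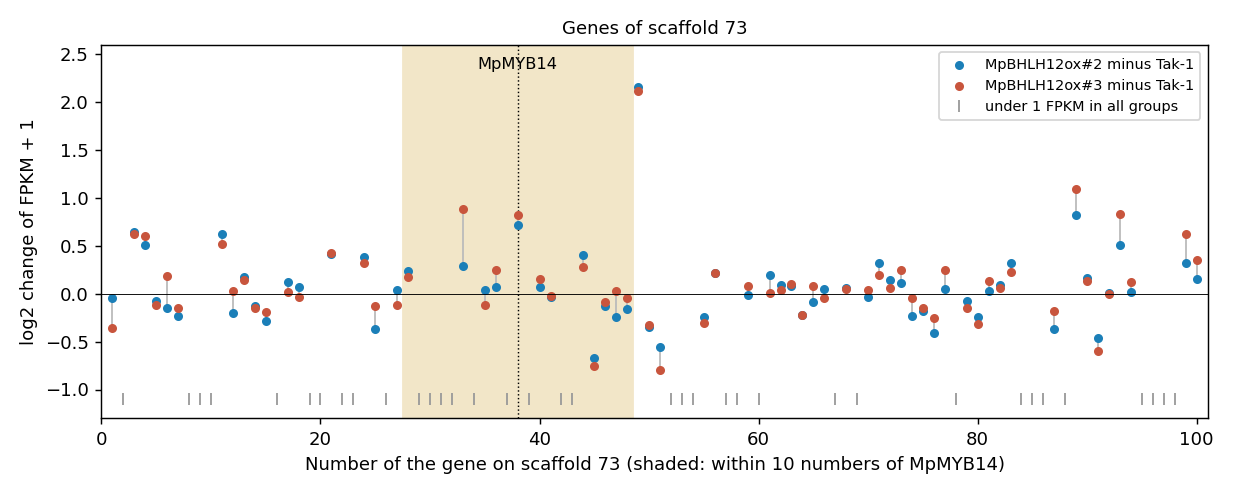
Points show the log2 change of FPKM + 1 against Tak-1 for the expressed genes of scaffold 73 in the order of their numbers, joined by a line for the 2 transgenic lines. Ticks at the bottom mark genes under 1 FPKM in all groups and the shaded band holds the genes within 10 numbers of MpMYB14. In the band, MpMYB14 lies at 0.72 and 0.82 and most of its neighbours lie nearer 0. Exceptions are Mapoly0073s0045 at -0.67 and -0.76 and Mapoly0073s0033 at 0.29 and 0.88, in the order MpBHLH12ox#2 and MpBHLH12ox#3. Mapoly0073s0049 at 2.16 and 2.12 lies just outside the band.

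Genes of the pathways that MpMYB14 is known to regulate were higher in the lines more often than genes at large, and they were far more abundant than MpMYB14. The list of 82 shikimate and phenylpropanoid genes was drawn up by the study from work on MYB overexpressors, so it is not independent of MpMYB14. In Tak-1, 72 of the 82 had a higher FPKM than MpMYB14, and their median was 18.5 FPKM. Of the 74 with at least 1 FPKM in any group, 22 (29.7%) were called higher and 2 were called lower, beside 6.16% and 5.07% of all expressed genes. The median of their mean changes was 0.27. With every group rescaled to EF1α it was 0.11, or 0.26 above the median of all expressed genes under that scaling. There, 16 of the 74 were called higher and 4 lower, beside 540 and 1121 of all 13324 expressed genes. In 12 of the 74 the change exceeded that of MpMYB14 in both lines, beside 2.83% of all expressed genes. On scaffold 70, genes annotated as polyketide/chalcone synthase and as phenylalanine ammonia lyase lie side by side. Without the 12 listed genes of that scaffold, 13 of 62 were called higher, 2 were called lower and the median was 0.18. How reads were divided among near-identical members of these families is not known, so levels of single members are uncertain.

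In the shikimate pathway, which supplies phenylalanine, 2 of 13 expressed genes were called higher and 0 lower, and the median change was 0.12. Over all expressed genes, 6.16% were called higher and 5.07% lower. The first enzyme of the pathway, 3-deoxy-D-arabino-heptulosonate-7-phosphate synthase (Mapoly0008s0188), had the highest Tak-1 level of the whole list, with 273.7 FPKM in Tak-1, 417.3 FPKM in MpBHLH12ox#2 and 372.0 FPKM in MpBHLH12ox#3, changes of 0.61 and 0.44. The 2 genes called higher act in the last steps to phenylalanine. The arogenate dehydratase gene Mapoly0204s0012 had 27.3, 45.2 and 42.0 FPKM, and the prephenate aminotransferase gene Mapoly0058s0104 had 18.6, 27.0 and 27.6 FPKM. After rescaling to EF1α their mean changes were 0.49 and 0.37, so neither kept its call. The other arogenate dehydratase genes were not called, and the nearest to the size, Mapoly0024s0087, had changes of 0.52 and 0.44. Between the first enzyme and these last steps, chorismate synthase (Mapoly0007s0052) changed by 0.18 and 0.18 and chorismate mutase (Mapoly0028s0048) by 0.04 and 0.19. The shikimate kinase gene Mapoly0035s0139 had changes of -0.33 and -0.31, short of the size. Of the 13 genes, 0 exceeded the change of MpMYB14 in both lines, beside 2.83% of all expressed genes.

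At the entry to the phenylpropanoid pathway, 5 of 17 genes were called higher and 0 lower, beside 6.16% and 5.07% of all expressed genes, with a median change of 0.40. Phenylalanine ammonia lyase takes the amino group from phenylalanine, and its 10 genes summed to 227 FPKM in Tak-1, 359 FPKM in MpBHLH12ox#2 and 372 FPKM in MpBHLH12ox#3. Most of this increase came from Mapoly0132s0049, which had 53.6, 155.1 and 161.0 FPKM, while the most abundant member, Mapoly0005s0089, had 75.6, 85.2 and 85.0 FPKM. Mapoly0132s0049 was the only gene of the entry step that exceeded MpMYB14 in both lines, beside 2.83% of all expressed genes. Cinnamate 4-hydroxylase follows in the pathway, and its main gene Mapoly0163s0018 had 197.8, 335.4 and 342.5 FPKM, changes of 0.76 and 0.79. The 4-coumaroyl-CoA ligase gene Mapoly0197s0014, which activates the product, had 66.9, 92.6 and 89.3 FPKM and stayed below the size with 0.46 and 0.41. Coumarate 3-hydroxylase (Mapoly0037s0087) had changes of -0.28 and -0.03.

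Of the 12 pathway genes that exceeded MpMYB14 in both lines on the log2(FPKM + 1) scale, 7 were annotated as polyketide/chalcone synthase. Adding 1 FPKM shrinks the change of a weak gene more. By ratio to Tak-1, MpMYB14 reached 2.09 and 2.30, and some of the 12 did not exceed it. Mapoly0072s0054 (1.71 and 2.28) and Mapoly0072s0061 (1.79 and 2.24) were lower in both lines. Mapoly0070s0060 (2.23) and Mapoly0099s0001 (2.18) were lower in MpBHLH12ox#3. The others exceeded it by ratio too. Chalcone synthase opens the flavonoid branch, and which of the genes with this annotation encode it was not examined. Of 24 polyketide/chalcone synthase genes 19 were expressed. Of these 19, 9 were called higher, 0 were called lower and 7 exceeded MpMYB14 in both lines on the log2 scale. These shares were 6.16%, 5.07% and 2.83% over all expressed genes. Their summed level was 791 FPKM in Tak-1, 1558 FPKM in MpBHLH12ox#2 and 1540 FPKM in MpBHLH12ox#3, or 1.97 and 1.95 times that of Tak-1. The 16 genes outside scaffold 70 summed to 374, 398 and 460 FPKM, or 1.06 and 1.23 times. Most of the summed increase thus lay on scaffold 70. Mapoly0070s0062, the most abundant member, had 180.4, 557.1 and 462.5 FPKM, and Mapoly0070s0036, which had the largest mean increase of the list, had 63.9, 216.3 and 253.6 FPKM. For the next enzyme, chalcone isomerase, no gene reached the size. Mapoly0167s0012 had 51.7, 59.8 and 48.6 FPKM and the chalcone isomerase-like gene Mapoly0175s0004 had 42.4, 50.9 and 47.0 FPKM.

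Among genes for enzymes that may decorate the products, 13 were higher than Tak-1 in both lines and 4 were lower in both. Over all 13324 expressed genes, these numbers were 5528 and 5360. Of 18 expressed genes, 6 were called higher and 1 lower, beside 6.16% and 5.07% of all expressed genes, with a median of 0.41. The flavonol 3-O-methyltransferase gene Mapoly0129s0005 had 21.0 FPKM in Tak-1, 79.2 FPKM in MpBHLH12ox#2 and 65.1 FPKM in MpBHLH12ox#3, while Mapoly0015s0026 of the same annotation had 52.4, 43.6 and 43.5 FPKM. The epimerase/dehydratase gene Mapoly0063s0049 had 9.89, 28.3 and 25.8 FPKM. Among 8 UDP-glucosyl transferase genes, whose enzymes attach sugars, 3 were called higher and 1, Mapoly0047s0001, was called lower with 26.6, 0.88 and 1.22 FPKM. The oxygenase gene Mapoly0002s0224, the most abundant of this step with 196.7 FPKM in Tak-1, had 183.9 FPKM in MpBHLH12ox#2 and 136.7 in MpBHLH12ox#3. The list also held 5 genes of fatty acid elongation, of which 0 were called higher and 1 was called lower. That gene, Mapoly0010s0013 for 3-hydroxyacyl-CoA dehydratase, had 25.6, 17.3 and 17.0 FPKM.

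**Figure D4:**
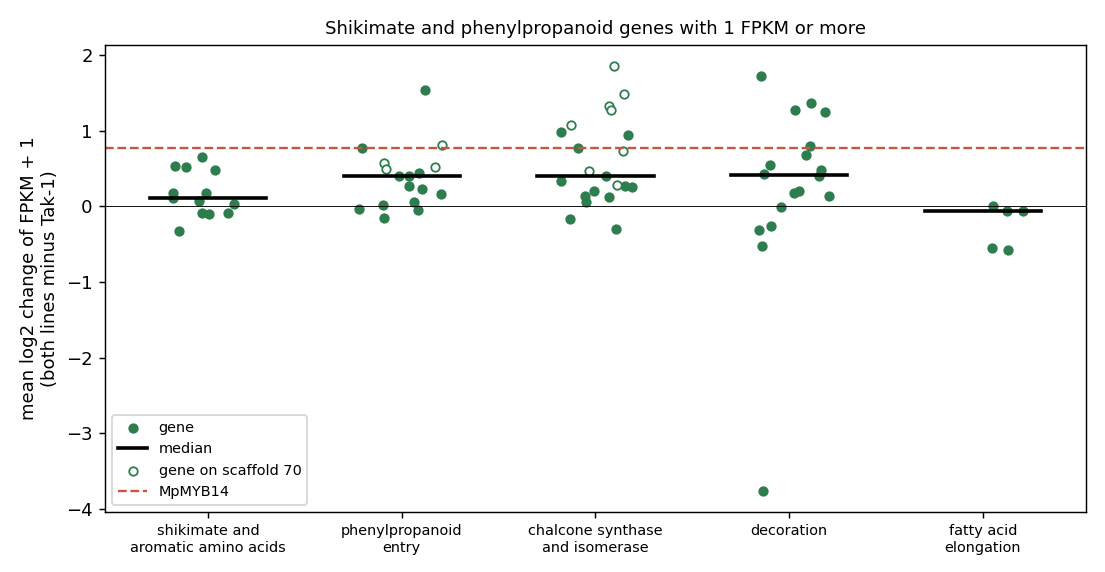
Each point is the mean log2 change of FPKM + 1 over both lines against Tak-1 for 1 of the 74 expressed genes of the list, grouped by pathway step. Open points lie on scaffold 70, black bars are medians and the dashed line marks MpMYB14 at 0.77. Polyketide/chalcone synthase genes on scaffold 70 lie on both sides of the dashed line. Fatty acid genes lie at or below 0, and the lowest point is Mapoly0047s0001 at -3.75.

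The list marks 42 genes with a listed change in plants that overexpress MpMYB14, and 1 of the 82 carries no mark. Of the 39 that were expressed here, 16 were called higher and 1 lower, and 9 exceeded MpMYB14 in both lines, beside 6.16%, 5.07% and 2.83% of all expressed genes. Of the 34 expressed genes of the 39 marked as not significant in those plants, 5 were called higher and 1 lower, and 2 exceeded MpMYB14. The summed level of the 42 genes was 1.70 times that of Tak-1 in MpBHLH12ox#2 and 1.59 times in MpBHLH12ox#3. Without the 11 of them on scaffold 70 it was 1.14 and 1.06 times, and 7 of 28 expressed genes were called higher and 1 lower. The difference between the marked and unmarked genes was not tested.

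The genes most like MpMYB14 were sought by the distance between genes in the plane of the 2 log2 changes, among the 13324 expressed genes. The likeness rests on 3 group averages only. The nearest were Mapoly0045s0039 at a distance of 0.01, Mapoly0185s0030, Mapoly0044s0115, Mapoly0078s0028 and Mapoly0012s0118, the last 4 at 0.03. Mapoly0045s0039 had 2.12 FPKM in Tak-1, 4.16 FPKM in MpBHLH12ox#2 and 4.51 FPKM in MpBHLH12ox#3. Mapoly0044s0115, a polyketide/chalcone synthase gene of the pathway list, had 2.46, 4.58 and 5.21 FPKM, so it matched MpMYB14 in change and lay at a similar low level. In all, 57 genes lay within 0.1 of MpMYB14 and 227 within 0.2. Of these 227, 6 were pathway genes, beside 74 pathway genes among all 13324 expressed genes. After Mapoly0044s0115, the pathway genes nearest to MpMYB14 were Mapoly0163s0018, Mapoly0070s0067, Mapoly0070s0061 and Mapoly0063s0048, at distances from 0.06 to 0.10. Because 1 FPKM was added, nearness on this scale does not mean an equal ratio to Tak-1. The abundant Mapoly0163s0018 had ratios of 1.70 and 1.73, against 2.09 and 2.30 for MpMYB14. By the distance over the 3 levels on the log2 scale, 0 of the 5 nearest genes were shared with those above.

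Among other regulators, bHLH genes were found in both directions. The list held the 11 further M. polymorpha bHLH genes of the phylogeny in the study and 3 genes annotated with a Myb-like DNA-binding domain in the part of the annotation used here. Of these 14 genes 11 were expressed, 2 were called higher and 2 lower, beside 6.16% and 5.07% of all expressed genes. Mapoly0013s0167 was as weak in Tak-1 as MpMYB14 and higher in the lines, with 1.42, 6.55 and 4.61 FPKM. Mapoly0028s0058 had 4.44, 0.78 and 0.75 FPKM and had the largest decrease. The other genes called were both on scaffold 28 and are named here because of their values. Mapoly0028s0060 had 6.02, 10.4 and 11.0 FPKM, and its changes of 0.70 and 0.77 lay 0.06 from MpMYB14, with 18 genes nearer. Mapoly0028s0062 had 4.88, 2.62 and 2.88 FPKM. The 3 Myb-like genes lay below the size, and the nearest to it, Mapoly0001s0061, had 4.23, 3.01 and 3.67 FPKM.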

How the data were processed

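RNA-Seq was made from thalli of Tak-1, MpBHLH12ox#2 and MpBHLH12ox#3. Reads were aligned by the authors to the JGI 3.1 assembly using Bowtie2, and fragments were counted using HTseq. The sample labels also name Cuffdiff 2.2.1 without saying what it was used for. The deposited FPKM values are the means of each group over 19287 genes. Their program, annotation and filters were not given in the sources used here. Low values were examined, and no depth was recovered from them. Gene identifiers are those of the table, and 0 of them matched the RefSeq gene table, so gene roles came from the paper and its supplementary tables.

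Each line was compared with Tak-1 as the difference of log2(FPKM + 1) in Python 3.11.15 with numpy 2.4.6 and pandas 2.3.3. The planned linear model needed replicate values, so a rule of size was used, 0.5 on the log2 scale in both lines, for genes reaching 1 FPKM in some group. The functions were tested on simulated data. Changes were planted only in genes more abundant in Tak-1 than MpMYB14, so calls at its level were not checked. No p-value was computed. The gene, the lists and the size were chosen with earlier results of these data known. Named were MpMYB14, MpBHLH12, EF1α, the 3 genes on either side of MpMYB14, the largest increase and decrease within 10 numbers, members of each pathway class with the highest Tak-1 level or the largest change, the 5 genes nearest to MpMYB14 over all genes and over pathway genes, and the extremes of the bHLH and Myb-like genes. Chalcone synthase and other multigene families were counted as the authors counted them. The alternatives were pseudocounts of 0.1, 5 and, chosen after seeing the data, 0.01, rescaling to the median or to EF1α, other filters, sizes, windows and lists, and a distance by level. Sequences of MpMYB14 were not used here.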

Additional observations from a re-analysis of the deposited data

How the results depend on the processing

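No paired analysis was possible because replicates had been averaged before deposit and carry no numbers in the table. Leaving out replicates was not run for the same reason, and depth limits could not be given. MpMYB14 was higher in MpBHLH12ox#2 and MpBHLH12ox#3 after rescaling to the median (0.71 and 0.82) and to EF1α (0.58 and 0.71). The other settings could not change its direction. A pseudocount keeps the sign, and filters, sizes, windows and lists leave its values as they were. The mean change of MpMYB14, 0.77, became 1.08 with a pseudocount of 0.1, 1.13 with 0.01, 0.34 with 5 and 0.64 after rescaling to EF1α. With 0.1 it passed a size of 1 in both lines (1.01 and 1.15), and with 5 it missed 0.5 (0.31 and 0.37). A pseudocount shrinks the change of a low gene by construction. With a pseudocount of 5, 814 genes changed by at least as much as MpMYB14, against 377 in the main setting. The number was 287 with a pseudocount of 0.1, 289 with 0.01 and 363 after rescaling to EF1α. MpMYB14 itself fails a filter at a mean of 5 FPKM.

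The number of called genes within 10 numbers on scaffold 73 was 1. It was 3 with pseudocounts of 0.1 and 0.01, 2 of them higher, and 8 over the whole scaffold. It was 0 with a pseudocount of 5, at a mean of 5 FPKM, within 5 numbers and at a size of 1. Of the pathway genes 24 were called, against 11 at a size of 1 and 15 without scaffold 70. Of the bHLH and Myb-like genes 4 were called, against 1 at a mean of 5 FPKM, 2 with a pseudocount of 5 and 2 at a size of 1. Over all expressed genes, 11.2% were called in the main setting and 3.08% at a size of 1. The split of 821 higher and 675 lower became 540 and 1121 after rescaling to EF1α. It was 1105 and 827 with a pseudocount of 0.1, 1147 and 846 with 0.01, and 428 and 410 with 5. At a mean of 5 FPKM, where fewer genes pass, it was 580 and 434. The 5 genes most like MpMYB14 shared 0 with the list by level. Of 51 named genes other than MpMYB14, 3 changed sign under EF1α scaling (Mapoly0028s0048, Mapoly0073s0040 and Mapoly0167s0012, all below the size) and 0 under median scaling.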
